A study of Mus musculus with 6 samples.

Results

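The unfolded protein response genes described here are 10 named genes: the sensors Ern1, Ern2, Atf6, Atf6b and Eif2ak3, the transcription factors Xbp1, Atf4 and Ddit3, and the targets Creld2 and Pdia4. They were found by their symbol in a table of 36652 genes. All 10 symbols were present, on 11 rows, because Ddit3 has 2 rows. Whole testis of mice aged 8 weeks was profiled by RNA sequencing, in 3 libraries of the WT label and 3 of the Ccdc117ko label. The labels name no strain or Ccdc117 allele and do not tell whether replicates are separate mice, so p-values measure only the spread between these libraries, which may be technical. The title of the series ties loss of Ccdc117 to raised androgen production and to sustained sperm formation.

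The unfolded protein response adjusts the endoplasmic reticulum (ER) to the load of proteins folding in it. IRE1, encoded by Ern1 and Ern2, cuts an intron out of Xbp1 mRNA in the cytosol, PERK, encoded by Eif2ak3, phosphorylates the initiation factor eIF2alpha and so favours translation of Atf4, and ATF6 is released from the membrane by proteolysis. Each of these steps acts on protein or on processed RNA, so the abundance of a sensor's mRNA is not a measure of its activity. Spermatids make large amounts of secretory and membrane protein for the acrosome, and the testis has folding enzymes of its own.

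Of the 11 rows, Creld2 rose in the libraries labelled Ccdc117ko, Ern1 and Pdia4 fell, and 8 did not pass the test. The changes were small: 1.16-fold for Creld2 (log2 fold change 0.21, standard error 0.04), 0.749-fold for Ern1 (-0.42, standard error 0.09) and 0.869-fold for Pdia4 (-0.20, standard error 0.04), with n = 3 and 3. The test was limma on log2(normalized count + 1), with Benjamini-Hochberg adjustment across the 32783 genes tested and a threshold of 0.05. It called 6.80% of all genes tested, 3.70% higher and 3.10% lower. The median log2 fold change was -0.04 over the 11 rows and 0.00 over all genes tested. In 6 rows no value under one label fell within the range of the other label, which was so for 27.0% of all genes tested. Among genes averaging 10 or more normalized counts, which leaves out Ern2 and the second Ddit3 row, limma called 16.6% of genes and the same 3 members.

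**Figure D1:**
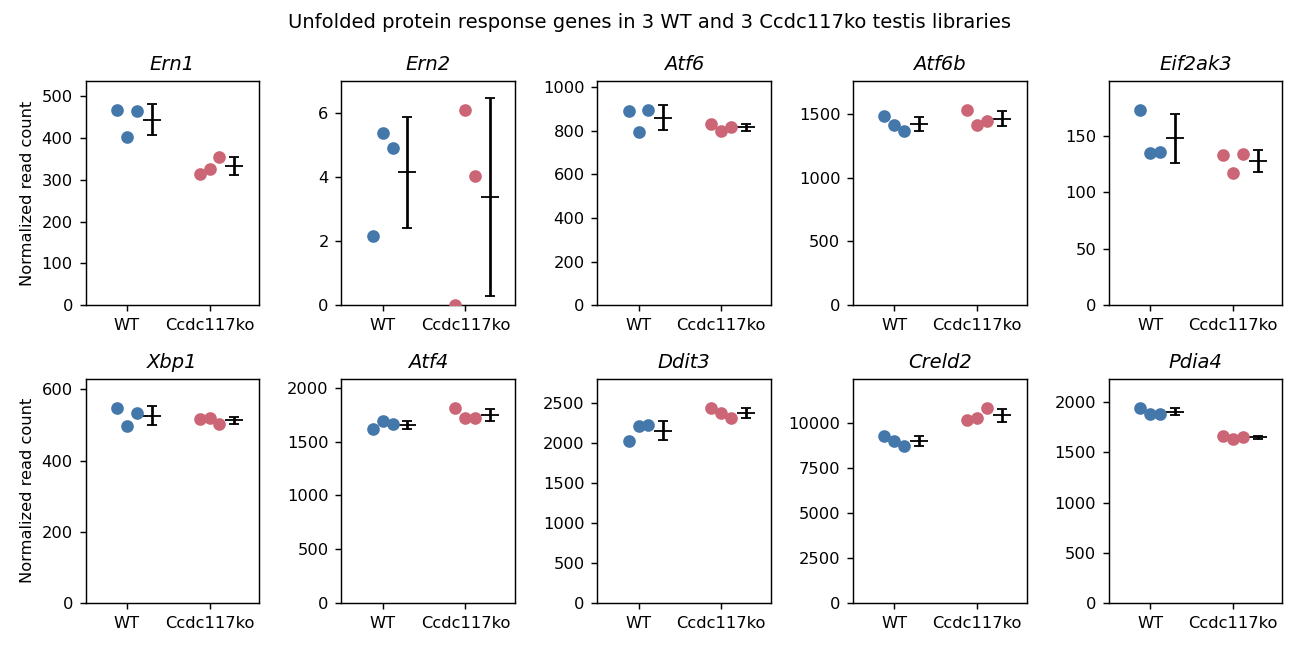
Normalized read count (vertical axes, each from 0) of the 10 genes in each library, WT in blue and Ccdc117ko in red; the bar beside each group is its mean ± SD (n = 3). Every Ccdc117ko library lies above every WT library for Creld2 and below every WT library for Ern1 and Pdia4; the short second Ddit3 row is not drawn.

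The libraries held 35791616 to 43461692 reads. Ccdc117 itself had a gene-level count that did not separate the labels, as given below beside Xbp1, so the directions here are those between labels. The tissue showed its defining germ cell transcripts: the 6 elongating spermatid markers summed to 485514 to 550382 normalized counts per library. Marker sums for several other testis cells differed between labels, while those for peritubular myoid and endothelial cells overlapped. All 6 round spermatid markers (Acrv1, Spaca1, Catsper4, Catsper3, Tssk1 and Txndc8) were called higher, with summed counts of 33259 to 37373 in WT and 42857 to 45624 in Ccdc117ko. Of 8 Sertoli cell markers 5 were called lower (9233 to 9405 against 7679 to 8185), of 6 spermatogonial markers 2 were called lower (9546 to 10394 against 7929 to 8462), and of 6 Leydig cell markers 3 were called higher (62748 to 73193 against 76824 to 89594). Most of the Leydig sum was Insl3 (means 48328 in WT and 57057 in Ccdc117ko), which overlapped between labels and was not called. Cyp11a1 was higher (log2 fold change 0.21) and Lhcgr lower (-0.41, limma adjusted p 0.126), and neither was called. No listed marker was at 0 in every library. The part of these cell types in the changes of Creld2, Ern1 and Pdia4 was not tested. In bulk tissue, fewer cells of a type and less RNA per cell cannot be told apart.

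Ern1 was the only sensor that passed the test. Ern1 (ENSMUSG00000020715) encodes IRE1alpha, a kinase and endoribonuclease of the ER membrane, and lies on the minus strand at chr11:106394650-106487852 in mm10. WT libraries held 467, 402 and 465 normalized counts of Ern1, and libraries labelled Ccdc117ko held 314, 327 and 356. All 3 Ccdc117ko libraries were below the lowest WT library, the second, and the means were 444 ± 36.9 and 332 ± 21.4 (SD, n = 3 each). The log2 fold change was -0.42 with a limma adjusted p of 0.0337, and the authors' deposited table gives an FDR of 0.00101, with 11.5% of its genes at an FDR under 0.05. The call was lost when any 1 library was left out (limma adjusted p 0.0669 to 0.153, log2 fold change -0.49 to -0.38), when the number of genes called in the whole table also dropped, to between 6 and 1268. Among genes averaging 10 or more normalized counts it held without each library in turn (limma adjusted p 0.0115 to 0.0457).

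Ern1 has a long transcript, 6946 bases at its longest, and fold changes across the table fell with transcript length. Over 14256 protein-coding genes averaging 50 or more normalized counts, the median log2 fold change was 0.10 in the fifth of genes with the shortest transcripts (up to 1818 bases) and -0.14 in the fifth with the longest (from 5186 bases). With the trend of length and GC content removed from each library, the log2 fold change of Ern1 was -0.28 (standard error 0.08) and it was no longer called (limma adjusted p 0.0896), against 5.73% of all genes called after that correction. After it 1 of the 8 Sertoli cell markers was called lower, in place of 5, and the counts for round spermatid, spermatogonial and Leydig cell markers were as before. Creld2 (1366 bases) and Pdia4 (2399 bases) stayed called, at 0.19 (adjusted p 0.0373) and -0.18 (adjusted p 0.0417). When the trend was taken only from genes averaging 50 or more, Pdia4 alone was called: Creld2 was at 0.14 (adjusted p 0.0963) and Ern1 at -0.27 (adjusted p 0.0879).

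**Figure D2:**
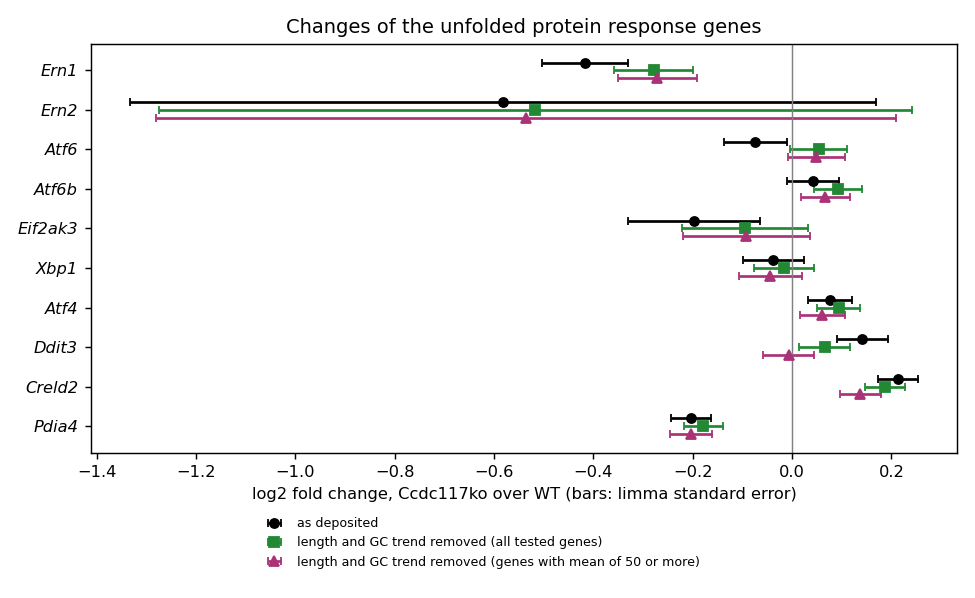
Log2 fold change, Ccdc117ko over WT (horizontal axis), of the 10 genes with its limma standard error: black as deposited, green and purple with the trend of transcript length and GC content removed. Pdia4 stays near -0.20 under all 3, Ern1 moves from -0.42 to -0.28 and -0.27, and Creld2 from 0.21 to 0.19 and 0.14. Atf6 changes sign in green and purple, and Ddit3 moves from 0.14 to 0.07 and -0.01.

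The other IRE1 gene, Ern2 (ENSMUSG00000030866; chr7:122169893-122186207, minus strand), which encodes the IRE1beta of mucosal epithelia, was at the limit of detection. It had 2, 6 and 5 reads in WT and 0, 6 and 4 in Ccdc117ko, where the 0 allows up to 2.998 normalized counts (3 reads, counting error only). The groups overlapped, and no difference was detectable at this depth (log2 fold change -0.58, standard error 0.75, limma adjusted p 0.704).

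Both ATF6 genes were at similar levels under the labels. Atf6 (ENSMUSG00000026663; chr1:170704674-170867771, minus strand) had normalized counts of 892, 792 and 893 in WT and 830, 798 and 817 in Ccdc117ko. The Ccdc117ko libraries lay within the range of the WT libraries, with means of 859 ± 58.1 and 815 ± 16.5 (log2 fold change -0.07, standard error 0.06, limma adjusted p 0.554). Its longest transcript has 7246 bases, and with the length and GC trend removed the sign turned (0.05, adjusted p 0.658). Its paralogue Atf6b (ENSMUSG00000015461; chr17:34647146-34655074, plus strand) had 1484, 1412 and 1369 in WT and 1529, 1414 and 1448 in Ccdc117ko. These ranges overlapped, with means of 1421 ± 57.9 and 1464 ± 59.3 (0.04, standard error 0.05, limma adjusted p 0.690). The ratio of Atf6 to Atf6b counts was 0.605 ± 0.0459 in WT and 0.557 ± 0.0123 in Ccdc117ko, and the ranges of that ratio overlapped.

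PERK mRNA did not pass the test. Eif2ak3 (ENSMUSG00000031668; chr6:70844515-70905245, plus strand) had normalized counts of 173, 135 and 136 in WT and 133, 117 and 134 in Ccdc117ko. The groups did not overlap, but the lowest WT library (134.6) and the highest Ccdc117ko library (134.0) were less than 1 count apart, and the first WT library stood above the rest. The means were 148 ± 21.6 and 128 ± 9.61, with a log2 fold change of -0.20 (standard error 0.13, limma adjusted p 0.436). Of its 50-base words 7.64% also occur in the antisense gene Gm43292, and the strand setting of the counting is not known here, so reads there are uncertain. The ratio of Ern1 to Eif2ak3 counts was 3.04 ± 0.364 in WT and 2.61 ± 0.224 in Ccdc117ko, with overlapping ranges.

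Xbp1, the transcription factor whose mRNA IRE1 splices, is the annotated neighbour of Ccdc117 itself. Xbp1 (ENSMUSG00000020484) runs on the plus strand at chr11:5520659-5525893, and Ccdc117 (ENSMUSG00000020482) on the minus strand at chr11:5528887-5542187, so the genes converge with 2993 bases between their ends. Xbp1 had 548, 498 and 535 normalized counts in WT and 517, 519 and 503 in Ccdc117ko. All 3 Ccdc117ko libraries fell inside the WT range, with means of 527 ± 25.98 and 513 ± 8.81 (log2 fold change -0.04, standard error 0.06, limma adjusted p 0.779). Ccdc117 had 3657, 3826 and 3931 in WT and 3478, 3772 and 3908 in Ccdc117ko, also overlapping (-0.03, standard error 0.05, limma adjusted p 0.763). Of the genes whose starts lie within 200 kb of the Xbp1 start and whose mean is at least 50 normalized counts, none was called by limma. Znrf3 was at 0.16 (adjusted p 0.355), Ankrd36 at -0.00 (adjusted p 0.992) and Mrps24 at -0.01 (adjusted p 0.992). Their unadjusted p-values were all above 0.05.

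**Figure D3:**
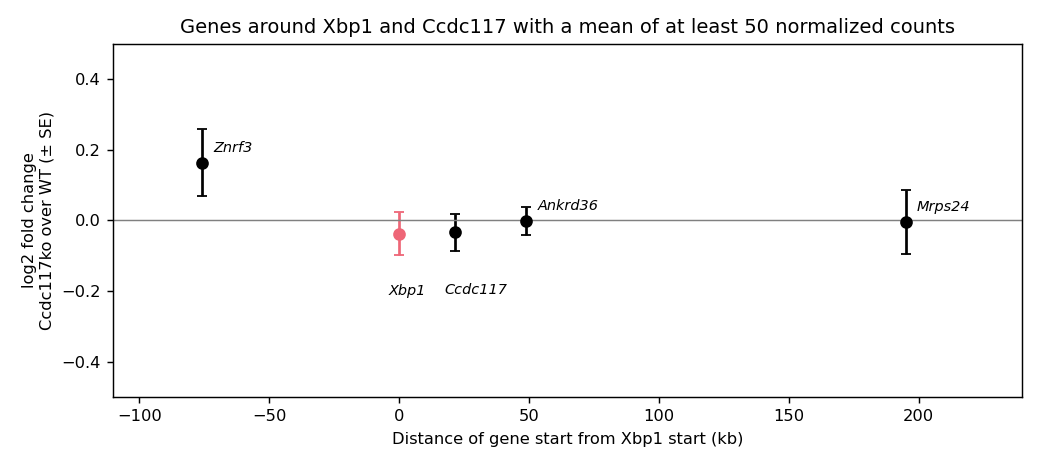
Log2 fold change, Ccdc117ko over WT, with its limma standard error (vertical axis) of the 5 genes around Xbp1 (red) averaging 50 or more normalized counts, against the distance of each gene's start from the Xbp1 start in kb. The values run from -0.04 for Xbp1 to 0.16 for Znrf3 and no gene was called.

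The stretch of Xbp1 on which IRE1 acts lies in exon 4 of the 5 exons of its annotated transcript, at chr11:5524267-5524316 (plus strand, coding sequence from GENCODE M21). It is shown because unspliced and spliced mRNA differ only by the 26 bases in capitals, which a count per gene does not resolve: the total above holds both forms, and their ratio was not analysed here.
Xbp1 IRE1 intron: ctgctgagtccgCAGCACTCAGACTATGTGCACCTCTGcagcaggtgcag

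The PERK-branch factors Atf4 and Ddit3 were higher in every Ccdc117ko library than in any WT library, without passing the test. Such separation, in either direction, was found for 27.0% of all genes tested. Atf4 (ENSMUSG00000042406; chr15:80255184-80257541, plus strand), the factor translated when eIF2alpha is phosphorylated, had 1620, 1695 and 1660 normalized counts in WT and 1813, 1717 and 1717 in Ccdc117ko. The means were 1659 ± 37.6 and 1749 ± 55.2 (log2 fold change 0.08, standard error 0.04, limma adjusted p 0.357). Ddit3 (ENSMUSG00000025408; chr10:127290774-127296288, plus strand), which encodes CHOP, a factor linked to cell death under lasting ER stress, had 2020, 2216 and 2225 in WT and 2435, 2372 and 2315 in Ccdc117ko. The first WT library was the lowest, and the means were 2153 ± 116 and 2374 ± 60.3 (0.14, standard error 0.05, limma adjusted p 0.143). With the length and GC trend removed Ddit3 was at 0.07 (limma adjusted p 0.533). It was at -0.01 (limma adjusted p 0.966) when that trend came only from genes averaging 50 or more. The ratio of Ddit3 to Atf4 counts was 1.25, 1.31 and 1.34 in WT and 1.34, 1.38 and 1.35 in Ccdc117ko. These ranges did not overlap, though the third WT library and the first Ccdc117ko library agreed to 3 digits.

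The second Ddit3 row (ENSMUSG00000116429) is a gene model of 105 exon bases at chr10:127290829-127293753, wholly inside the exons of the first. It had 1, 0 and 1 reads in WT and 1, 1 and 0 in Ccdc117ko, so no difference was detectable at this depth (log2 fold change -0.01, limma adjusted p 0.995). Where there was no read, the limits are 2.69 normalized counts in the second WT library and 3.02 in the third Ccdc117ko library. Ddit3 also overlaps 68 exon bases of Mars on the other strand. Reads over shared bases are uncertain for both Ddit3 rows.

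Creld2 and Pdia4, the targets among the members, moved in opposite directions. Creld2 (ENSMUSG00000023272; chr15:88819646-88826683, plus strand) encodes a cysteine-rich ER protein with EGF-like domains, known to be induced by ER stress. Its normalized counts were 9273, 8984 and 8685 in WT and 10148, 10281 and 10819 in Ccdc117ko. All Ccdc117ko libraries were above all WT libraries, with means of 8981 ± 294 and 10416 ± 355 (SD, n = 3 each). The log2 fold change was 0.21, at a limma adjusted p of 0.0253. The authors' deposited table gives an FDR of 4.2e-06 for Creld2.

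Pdia4 (ENSMUSG00000025823; chr6:47796141-47813430, minus strand) encodes ERp72, a protein disulfide isomerase of the ER. It had 1941, 1877 and 1886 normalized counts in WT and 1665, 1635 and 1655 in Ccdc117ko. The libraries of each label lay close together and far from the other label, with means of 1902 ± 34.8 and 1652 ± 15.2. The log2 fold change was -0.20, at a limma adjusted p of 0.0284. The authors' deposited table gives an FDR of 0.00208 for Pdia4. Leaving out the first WT library kept both calls (limma adjusted p 0.0485 for Creld2 and 0.0474 for Pdia4). Leaving out WT library 2 or 3 or any Ccdc117ko library ended both (0.0800 to 0.121 and 0.0725 to 0.111), with the direction kept. Among genes averaging 10 or more normalized counts, Creld2 stayed called without each library (0.00276 to 0.0299), and Pdia4 was lost without the second Ccdc117ko library (0.0682).

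Taken within each library, which removes the scaling between libraries, the ratio of Creld2 to Pdia4 counts was 4.78, 4.79 and 4.61 in WT and 6.09, 6.29 and 6.54 in Ccdc117ko. The means of that ratio were 4.72 ± 0.101 and 6.31 ± 0.222. The ranges did not overlap, which follows from the opposite and separated values of Creld2 and Pdia4 given above and adds no further evidence. This ratio shows unequal change of the genes and not which of them moved.

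The RefSeq promoter windows of the 3 called members are shown because the ER stress response element was found in the window of Creld2. The part of this element in the changes of the members was not tested. The windows are not alike: those of Creld2 and Ern1 end at the GENCODE 5′ end of the gene, while that of Pdia4 ends 82 bases upstream of it, since RefSeq places the Pdia4 start there. That element was searched as CCAAT and CCACG separated by 9 bases, on either strand, in the 250 bases before each RefSeq start (GRCm38.p6). The exact element occurred in 37 of 32851 promoters (0.113%) and in 1 of the 8 members with a RefSeq entry, Creld2. It lies on the minus strand at chr15:88819520-88819538, 126 to 108 bases before the Creld2 start. Read 5′ to 3′ on that strand, with both parts of the element in capitals, it is as follows.
Creld2 element: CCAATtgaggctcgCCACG

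Below, each promoter is printed on the strand of its gene without exon bases, and capitals mark CCAAT or CCACG on either strand (ATTGG and CGTGG on the printed strand are their reverse complements).
Creld2, chr15:88819396-88819645: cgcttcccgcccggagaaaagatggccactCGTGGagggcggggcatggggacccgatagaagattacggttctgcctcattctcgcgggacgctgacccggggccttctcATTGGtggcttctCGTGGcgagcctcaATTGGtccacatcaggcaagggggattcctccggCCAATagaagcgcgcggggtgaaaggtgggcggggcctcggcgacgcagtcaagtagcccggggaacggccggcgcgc
Pdia4, chr6:47813513-47813762: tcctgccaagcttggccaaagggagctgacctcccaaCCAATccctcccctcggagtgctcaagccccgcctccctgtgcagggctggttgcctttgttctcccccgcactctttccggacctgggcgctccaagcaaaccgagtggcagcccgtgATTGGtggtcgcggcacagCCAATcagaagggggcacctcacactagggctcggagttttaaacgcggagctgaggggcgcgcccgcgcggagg
Ern1, chr11:106487853-106488046: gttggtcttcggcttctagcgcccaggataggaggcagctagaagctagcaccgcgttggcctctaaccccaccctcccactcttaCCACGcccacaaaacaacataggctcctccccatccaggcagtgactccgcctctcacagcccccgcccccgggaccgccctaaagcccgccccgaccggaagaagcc

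The Creld2 stretch holds 3 CCAAT boxes and 2 CCACG matches, that of Pdia4 3 CCAAT boxes and 0 CCACG matches, and that of Ern1 0 and 1. CCAAT occurred in 33.8% of all promoters and in 6 of the 8 members (Atf4, Atf6b, Creld2, Ddit3, Eif2ak3 and Pdia4). CCACG occurred in 28.3% of all promoters and in 3 of the 8 (Atf4, Creld2 and Ern1). The second form of the element, ATTGGNCCACG, was in 0.0304% of promoters, the core TGACGTGG in 0.563% and the ATF4-type sequence TGATGNAA in 3.45%, and none of these letters was in the window of a member. These matches describe letters and not bound sites.

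Per kilobase of merged exons the members spanned a wide range of levels. Creld2 led with 6574 ± 215 normalized counts per kilobase in WT, followed by Ddit3 (1257 ± 67.7), Pdia4 (793 ± 14.5) and Atf4 (703 ± 15.9). Atf6b was at 516 ± 20.99, Xbp1 at 162 ± 8.00, Atf6 at 93.1 ± 6.29, Ern1 at 54.4 ± 4.51 and Eif2ak3 at 24.5 ± 3.59 on the same scale. Ern2 was lowest, at 1.40 ± 0.585, and overlapped with the short Ddit3 row (6.57 ± 5.71). No other neighbours in this order overlapped between WT libraries. With the longest transcript as the length, Atf4 and Pdia4 changed places and overlapped. The targets and PERK-branch factors were above the sensors per length, and the membrane kinases Ern1 and Eif2ak3 were the lowest of the readily detected members.

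The other genes of the pathway changed in both directions. Of 105 listed genes tested, each counted once, limma called 5 higher and 5 lower, or 9.52% against 6.80% of all genes tested, and the median log2 fold change was -0.02 against 0.00. These calls also rested on the full set of libraries: 5 were left without the first WT library, 1 without the first Ccdc117ko library and 0 without any of the other 4, where 27 to 35 of the 105 had an unadjusted p under 0.05 (38 with all libraries). Of all genes tested, 22.7% had an unadjusted p under 0.05 with all libraries, and in those 4 omissions 20.6% (WT library 2), 17.7% (WT library 3), 17.8% (Ccdc117ko library 2) and 20.1% (Ccdc117ko library 3). Among genes averaging 10 or more normalized counts, limma called 25 pathway genes with all libraries, and 3798 of all 22878 genes. Without each library in turn it called 22, 15 and 12 pathway genes (WT) and 18, 9 and 16 (Ccdc117ko), and 1714 to 4021 of all genes.

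Among 22 ER chaperones and folding enzymes 1 was called higher and 3 lower (3.70% and 3.10% of all genes tested), with a median log2 fold change of -0.04. At an unadjusted p under 0.05 by limma, 2 of the 22 were higher and 8 lower (11.1% and 11.6% of all genes tested). Limma voom called 7 (7.4% of all genes tested). Hyou1, a co-chaperone that exchanges nucleotide on BiP, fell most: its normalized counts were 8536, 8487 and 9147 in WT and 6711, 5498 and 5534 in Ccdc117ko, with no overlap (log2 fold change -0.57, standard error 0.08, limma adjusted p 0.0148). The prolyl isomerase gene Fkbp14 (-0.37, adjusted p 0.0198) and the disulfide isomerase gene Txndc5 (-0.30, adjusted p 0.0342) fell as well, and Txndc5 was not called after the length and GC correction (adjusted p 0.0616). Manf, a secreted protein induced by ER stress, rose from 5754 ± 69.0 to 6725 ± 78.6 (0.22, standard error 0.03, limma adjusted p 0.0155). Hyou1, Fkbp14 and Txndc5 had the direction of Pdia4, and Manf that of Creld2. As Creld2 and Pdia4 moved in opposite directions, any called gene shares a direction with either Creld2 or Pdia4.

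Of 23 genes of ER-associated degradation, which returns misfolded protein to the cytosol, 1 was called higher and 1 lower (median -0.02). Of all genes tested 3.70% were called higher and 3.10% lower. At an unadjusted p under 0.05 by limma, 2 of the 23 were higher and 3 lower (11.1% and 11.6% of all genes tested). Limma voom called 2 (7.4% of all genes tested). The genes called by limma encode the partner cofactors of the p97 ATPase. Ufd1 rose from 4049 ± 121 to 4708 ± 166 normalized counts (0.22, limma adjusted p 0.0275), and Nploc4 fell from 7458 ± 456 to 5693 ± 337 (-0.39, limma adjusted p 0.0169).

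Of 14 genes for eIF2alpha kinases, phosphatases and eIF2B, 1 was called lower and 0 higher by limma, with 1 higher and 4 lower at an unadjusted p under 0.05 (11.1% and 11.6% of all genes tested) and 1 called by limma voom (7.4% of all genes tested). That gene was Eif2ak1, the haem-regulated eIF2alpha kinase (-0.18, adjusted p 0.0387), which was not called after the length and GC correction (-0.09, adjusted p 0.235) or with upper-quartile scaling (adjusted p 0.0508). Its longest transcript has 4325 bases. Of 27 ATF4 and CHOP targets 1 was called higher and 0 lower (median 0.09), with 6 higher and 6 lower at an unadjusted p under 0.05 and 2 called by voom, against the same shares of all genes tested. Atf5, a factor related to ATF4, rose from 621 ± 11.2 to 821 ± 35.4 normalized counts (0.40, limma adjusted p 0.0151). With the length and GC trend removed, 4 of these 27 targets were called higher and 0 lower, against 1442 higher and 432 lower of 32704 genes.

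Of 19 partners of the sensors and related bZIP factors 1 was called higher and 0 lower (median 0.06), with 3 higher and 2 lower at an unadjusted p under 0.05 and 1 called by voom. These 5 genes of 19 are close to the 22.7% of all genes tested with such a p. Creb3l4, an ER-bound factor known from spermatids, rose from 11112 ± 609 to 13912 ± 465 normalized counts (0.33, limma adjusted p 0.0161). After that correction 2 of the 19 were called higher. Of 3 testis ER chaperones 1 was called higher and 0 lower, with 2 higher and 0 lower at an unadjusted p under 0.05 (11.1% and 11.6% of all genes tested) and 1 called by voom. That gene was Pdilt, a testis relative of the disulfide isomerases (6082 ± 337 to 7411 ± 608, 0.28, limma adjusted p 0.0443). It was not called when libraries were scaled by total reads (adjusted p 0.0512) or when any 1 library was left out (0.0764 to 0.195). Calr3 (0.17, limma adjusted p 0.0807) and Clgn (-0.07, limma adjusted p 0.407) were not called. The round spermatid marker sums given above were higher in the same libraries, and their part in the rise of Creb3l4 and Pdilt was not tested.

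**Figure D4:**
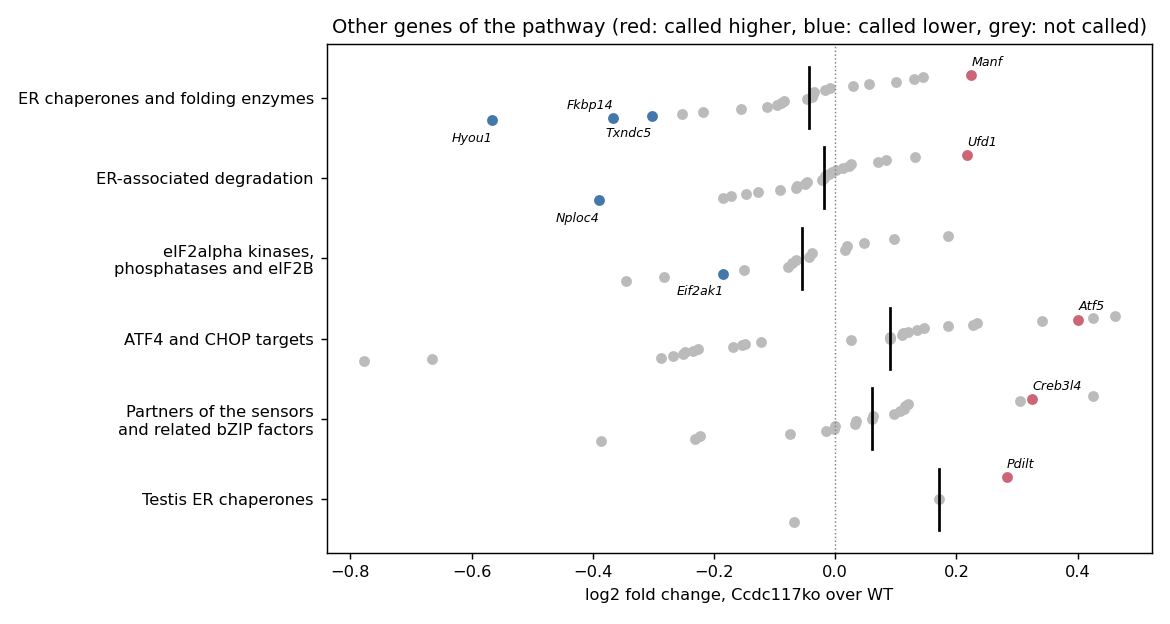
Log2 fold change, Ccdc117ko over WT (horizontal axis), of the genes of 6 lists, 1 point per gene, spread vertically in order of value; the black line is the list's median. The 5 genes called higher (red) and 5 called lower (blue) are named, with Hyou1 lowest at -0.57 and Atf5 highest of those called at 0.40, and the medians lie between -0.05 and 0.17.

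For each called member, the genes whose log2 values followed it most closely over the 6 libraries were listed among 17548 genes averaging 50 or more normalized counts. Ern1 was followed by Trim26, Golm1 and Ubr2 (Pearson r of 0.998 for each), Creld2 by 4921528I07Rik, Orc1 and 4930546K05Rik (0.997 for each), and Pdia4 by Rnf217 (0.997), Stk24 (0.996) and Cpt2 (0.996). The 6 libraries fall under 2 labels and share the scaling, and these values are a description only.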

How the data were processed

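RNA of whole testis was extracted with TRIzol, treated with DNase and sequenced from stranded mRNA libraries on an Illumina HiSeq instrument, per the labels' protocols. STAR, DESeq2 and mm10 are named in the submitters' processing notes with no version, role or order, and the way reads were counted, and whether by strand, is not stated. Deposited by the authors was 1 log2 value per gene and library, read here from the values as log2(normalized count + 1): with the log undone, 100% of values under 500 reads were whole multiples of 1 step per library within 0.01. Those steps gave the reads per library. The authors' deposited table also has a log2 fold change, p-value and FDR per gene, whose test is not stated.

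Limma-trend (limma 3.58.1, R 4.3.3) was fitted with genotype as the only term to the deposited log2 values of the 32783 genes averaging 0.5 or more normalized counts. The test was two-sided, with Benjamini-Hochberg adjustment across those genes. Fold changes on this scale understate those of genes with few reads. Members and lists were chosen with earlier results of these data known, so they are described by counts and medians. The rule names all members, Ccdc117, the neighbours of Xbp1 within 200 kb averaging 50 or more, up to 4 called genes per pathway list (those with the smallest adjusted p), and the 3 genes most correlated with each called member. Hspa5 and Hsp90b1 were added once their values were known.

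Gene positions, lengths and GC content are those of GENCODE M21 (GRCm38, mm10), in which 36551 of 36652 identifiers were found. The length and GC correction removed natural splines of both, knotted at the 25, 50 and 75 percentiles, from each library's deviations. Promoters are those of RefSeq on GRCm38.p6; Atf6 and Ern2 had no entry. No libraries were duplicates: replicates differed with a chi-square of 4.68 to 7.50 per degree of freedom. Alternatives were another filter, pseudocount, scaling, voom, a replicate block, the length and GC correction, and leaving out each library. The correction from genes averaging 50 or more and the repeat of the omissions among genes averaging 10 or more were added after seeing the data.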

Additional observations from a re-analysis of the deposited data

How the results depend on the processing

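The 3 member calls held with other filters, pseudocounts (0.5 and 8) and scalings and with voom. They fell to 2 after the length and GC correction, to 1 with that trend from genes averaging 50 or more, and to 0 to 2 when a library was left out. Replicate numbers did not pair the libraries (correlations of same-numbered libraries -0.08, -0.05 and 0.04). With the replicate number as a block 0 members were called by limma (4 at an unadjusted p under 0.05), 703 of all genes and 5 pathway genes. With the block and the length and GC correction together these counts were 0 (3 unadjusted), 26 and 0 (31 unadjusted). Over all genes tested, 3798 were called among those averaging 10 or more, and 6 to 1268 without 1 library, where 3 to 5 members had an unadjusted p under 0.05. Of the pathway genes 25 were called among those averaging 10 or more (9 to 22 without 1 library), and 0 to 5 without 1 library in the main test. Among genes averaging 10 or more, the 3 members stayed called without each library, except Pdia4 without Ccdc117ko replicate 2. Of all calls 1212 were higher and 1016 lower; after the length and GC correction 1442 and 432, and with the trend from genes averaging 50 or more, 1130 and 631. Signs turned only for members that were not called: Atf6 (0.0536 with the correction, with and without the block, and 0.0491 with the trend from genes averaging 50 or more), Ddit3 (-0.0068 with the trend from those genes), Ern2 (-1.14 to 0.28 without 1 library) and the short Ddit3 row (0.0671 with voom, 0.0255 with the trend from genes averaging 50 or more, -0.35 to 0.32 without 1 library). The cause was not tested. Only 3 libraries per label and 0 to 6 reads per library leave Ern2 and the short Ddit3 row without a usable estimate.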

Other observations

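Hspa5 and Hsp90b1, among the abundant ER chaperone genes, lay near the threshold and were named after their values were seen. Calr, which encodes the ER chaperone calreticulin, was more abundant in WT and did not lie near it (23587 ± 498 normalized counts in WT and 23010 ± 858 in Ccdc117ko, log2 fold change -0.04, limma adjusted p 0.619). Hspa5, which encodes the chaperone BiP that binds the sensors, had 19745, 22009 and 23437 normalized counts in WT and 18529, 17232 and 18841 in Ccdc117ko. All Ccdc117ko libraries were below all WT libraries, with a log2 fold change of -0.25 (standard error 0.06, limma adjusted p 0.0586). Hsp90b1, which encodes the ER form of HSP90, had 20244, 22103 and 23022 in WT and 18188, 17992 and 20030 in Ccdc117ko, also without overlap (-0.22, standard error 0.06, limma adjusted p 0.0692). Both were called when only genes averaging 10 or more normalized counts were tested (limma adjusted p 0.0107 and 0.0160). After the length and GC correction over all genes neither was called (0.130 and 0.104). In that list of 22 chaperones and folding enzymes, 8 genes were lower and 2 higher at an unadjusted p under 0.05, which 11.6% and 11.1% of all genes tested were.

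Of the marker lists for other cells in the tissue or beside it, limma called 1 of 6 elongating spermatid markers higher. It called 1 of 6 spermatocyte, 1 of 6 macrophage and 1 of 4 peritubular myoid cell markers lower. At an unadjusted p under 0.05 by limma, 3 spermatocyte markers were lower and 1 higher, and 2 macrophage markers were lower. Of all genes tested 11.6% were lower and 11.1% higher at such a p. Spermatocyte sums were higher in Ccdc117ko (149397 to 162452 in WT, 163345 to 163962 in Ccdc117ko). Most of that sum was Ldhc, averaging 124540 and 134310 (log2 fold change 0.11, not called). The other 5 spermatocyte markers had log2 fold changes below 0, and the median of the list was -0.13, so the sum does not show the direction of most of its markers. Limma called 0 of 5 plasma cell markers (1 at an unadjusted p under 0.05), 0 of 4 endothelial markers (0), 0 of 4 epididymis markers tested (1) and 0 of 4 adipocyte markers (2), and voom called 0 in each of these 4 lists. The plasma cell markers, from a cell type with a large ER, summed to 289 to 409 normalized counts in WT and 328 to 356 in Ccdc117ko.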
